A study of Mus musculus with 6 samples.

Results

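The genes described here are the chemokines and chemokine receptors of tumour hepatocyte preparations from mice with and without the transcriptional co-repressor Ripply1. Members were the rows of the count table whose symbol was Ccl, Cxcl, Cx3cl, Xcl, Ccr, Cxcr, Cx3cr, Xcr or Ackr followed directly by a number. Of 18260 genes 48 met the rule: 30 ligands, among them the pseudogene Ccl19-ps3, 14 signalling receptors and 4 atypical receptors. Ripply1 ΔHep mice carried Ripply1 alleles with loxP sites around exons 1 to 3 together with Alb-Cre, a recombinase driven by the albumin promoter in hepatocytes, and Ripply1 F/F mice carried the floxed alleles alone. All were male and received diethylnitrosamine (DEN), a liver carcinogen, injected once into the peritoneum when 6 weeks old, at 90 μg per g. From 3 weeks later both groups ate phenobarbital (PB), which promotes liver tumours, at 0.05% of the diet during 27 weeks. Hepatocytes were prepared from tumours at week 30 after DEN, and 3 ΔHep and 3 F/F libraries of RNA were sequenced. The labels give no strain and do not tie replicates to separate animals, so p-values measure only the spread between these samples, which may be technical.

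Chemokines are small secreted proteins, or in the case of Cx3cl1 a membrane-anchored one, that guide leukocytes along a concentration gradient. They act on receptors of the membrane that signal through Gi proteins. Atypical receptors bind chemokines without Gi signalling and take them up, which shapes the gradient. In liver, ligands come from hepatocytes, endothelium, stellate cells, bile duct cells and macrophages, while most of the signalling receptors are known from leukocytes.

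Total counts ran from 27772849 to 35894395 per library, and 1 CPM, the count scaled to library size (TMM-scaled), stood for 26.67 to 37.87 counts. Ripply1 had 1, 1 and 2 counts in ΔHep libraries and 13, 8 and 12 counts in F/F libraries, in the order of replicates 1, 2 and 3, the order used for all lists of values here. Hepatocyte RNA was abundant in every library, with 6 hepatocyte markers summing to 85344 to 114279 CPM in ΔHep and 100077 to 108107 CPM in F/F libraries. RNA of other cells was present in every library. F/F replicate 3 stood apart from its group: its 6 macrophage markers summed to 338 CPM, against 137 and 170 CPM in F/F replicates 1 and 2, and 441, 354 and 400 CPM in the ΔHep libraries. In bulk RNA, fewer cells of a type and less RNA per cell cannot be told apart, which holds for every result below.

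The promoters shown are those of Cx3cl1, the called ligand, and of the pair of Cxcr4 and Cxcl12, the receptor with the highest ΔHep level per kb of exon and the most abundant ligand. The letters begin 250 bases before the RefSeq start (build GRCm38.p6, 5′ to 3′, strand of the gene) and are limited to bases outside exons annotated for the gene. They cover chr8:94771930-94772008 (plus strand) for Cx3cl1, chr1:128592300-128592549 (minus strand) for Cxcr4 and chr6:117168285-117168534 (plus strand) for Cxcl12. Motif matches would stand in capitals, and none fell in these stretches.
Cx3cl1: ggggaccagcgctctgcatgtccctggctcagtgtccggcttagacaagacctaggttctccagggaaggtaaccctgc
Cxcr4: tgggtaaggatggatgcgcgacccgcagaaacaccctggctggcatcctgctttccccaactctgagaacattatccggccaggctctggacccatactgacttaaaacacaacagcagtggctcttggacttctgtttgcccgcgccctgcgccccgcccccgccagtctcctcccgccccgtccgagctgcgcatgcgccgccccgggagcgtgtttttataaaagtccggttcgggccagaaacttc
Cxcl12: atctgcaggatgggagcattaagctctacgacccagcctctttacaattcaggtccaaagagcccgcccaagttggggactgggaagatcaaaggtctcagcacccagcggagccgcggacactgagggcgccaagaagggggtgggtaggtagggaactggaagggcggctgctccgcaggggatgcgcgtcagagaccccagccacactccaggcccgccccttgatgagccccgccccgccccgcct

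RefSeq gave 43 windows of 250 bases before a start for 36 of the 48 members, and 5 motifs were searched in them on both strands. The T-box half-site AGGTGTGA, the class of site bound by the T-box factors on which Ripply proteins act, was found in 0 of the 43 member windows and in 1.12% of all 32851 windows. The interferon-stimulated response element was found in 3 member windows, of Ccl19, Cxcl10 and Cxcl14, and in 2.98% of all windows. A motif of the NF-kB class was found in 6 member windows, of Ccl9, Ccr3, Ccr6, Cxcl1, Cxcl2 and Cxcl10, and in 4.65% of all. The gamma-activated site TTCNNNGAA and the PU.1 motif GAGGAAG were found in 3 and 5 member windows and in 7.02% and 10.6% of all windows. The PU.1 match in the Cx3cl1 window began 67 bases before the RefSeq start. By GENCODE vM21, where the gene starts at 94772009, the match lies inside the gene and not upstream of it. Motifs of different kinds could share bases, since each was searched on its own.

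The members past the test's threshold were a monocyte receptor and the fractalkine pair. Of the 48 members 27 passed the filter on low counts and were tested with edgeR's quasi-likelihood test over 14552 genes, with p-values adjusted by the Benjamini-Hochberg method. Log2 fold changes are ΔHep over F/F, and SE is their standard error. Of these, 3 rose in ΔHep hepatocyte preparations at an adjusted p below 0.05: the fractalkine receptor Cx3cr1, its ligand Cx3cl1 and the monocyte receptor Ccr2. Across all genes tested 1.51% were called higher and 1.68% in either direction. None of the members was called lower (0 with edgeR, with DESeq2 and with limma-voom, and 0 at an unadjusted p below 0.05), where 0.165% of all genes were with edgeR, 1.42% with DESeq2 and 0.0825% with limma-voom. At an unadjusted p below 0.05, 13 members were higher, beside 14.1% of all genes tested, and 6.97% of all genes were lower.

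**Figure D1:**
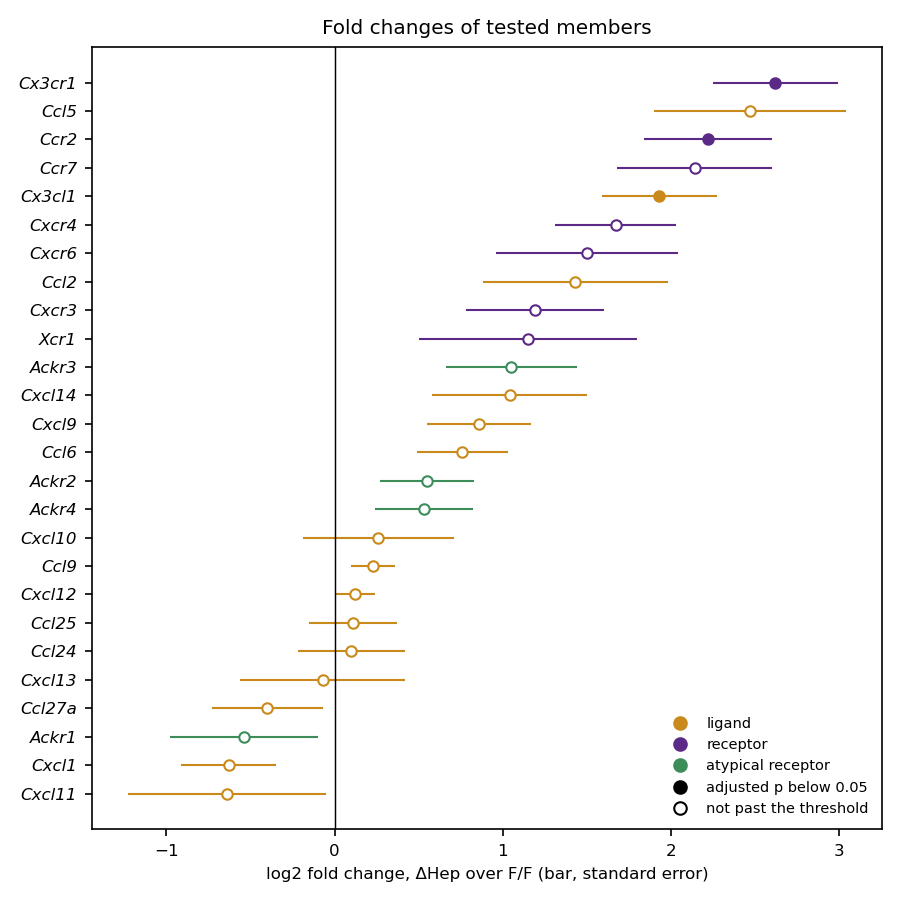
Log2 fold change of ΔHep over F/F (horizontal axis, bars are standard errors of the edgeR fit on 3 libraries per group) for 26 of the 27 tested members, from highest to lowest. Filled points passed an adjusted p of 0.05. The signalling receptors lie right of 0, with Cx3cr1 highest at 2.62, while the 15 ligands spread from -0.64 to 2.47.

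Most tested members had positive fold changes. Fold changes were positive for all 8 tested signalling receptors, with a median log2 value of 1.58, for 11 of 15 tested ligands, with a median of 0.23, and for 3 of 4 atypical receptors, with a median of 0.54; with library totals only the ligand Cxcl13 turned positive (0.03). Over all genes tested 48.8% were positive and the median was -0.01. The difference between receptors and ligands was not tested. The level at which a gene passes the filter was 0.314 CPM. In 4 members, Ccr7, Cxcr6, Xcr1 and Ccl2, it was met in every ΔHep library and not in every F/F library. Their entry into the test rested on the ΔHep group, which favoured positive fold changes, and 3 of them are among the 8 receptors. Ccl2, Ccr7 and Cxcr6 were also among the 13 members higher at an unadjusted p below 0.05. In 1 member, Cxcl11, with a log2 fold change of -0.64, the reverse held. Summed over the 14 signalling receptors, expression was 30.8, 29.6 and 36.2 CPM in ΔHep and 9.04, 10.4 and 16 CPM in F/F libraries, and the groups did not overlap. The 30 ligands summed to 491, 517 and 466 CPM in ΔHep and 439, 431 and 418 CPM in F/F libraries, also without overlap. Most of each ligand sum was Cxcl12, whose own values overlapped between the groups.

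The pair of Cx3cr1 and Cx3cl1 was called on both sides. Cx3cr1, the receptor of patrolling monocytes and some tissue macrophages, stood at 3.88, 7.35 and 6.63 CPM in ΔHep and 0.6, 0.935 and 1.36 CPM in F/F libraries. Every ΔHep library lay above every F/F library. Its mean was 5.95 ± 1.83 CPM in ΔHep and 0.966 ± 0.382 CPM in F/F (SD, n = 3 each). The log2 fold change was 2.62 (SE 0.37, edgeR adjusted p = 0.0329) or 6.13-fold. Cx3cl1, or fractalkine, is made by endothelium and epithelia as a membrane-anchored adhesion molecule that can be shed. It stood at 2.16, 3.49 and 2.9 CPM in ΔHep and 0.975, 0.561 and 0.717 CPM in F/F libraries, again with no overlap. Its log2 fold change was 1.93 (SE 0.34, edgeR adjusted p = 0.0409), or 3.8-fold.

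Ccr2, the receptor that brings inflammatory monocytes out of bone marrow and into tissue, rose too. Its values were 2.87, 5.33 and 7.58 CPM in ΔHep and 1.35, 0.904 and 1.15 CPM in F/F libraries. The groups did not overlap, and the ΔHep libraries spread by more than the F/F libraries. The log2 fold change was 2.22 (SE 0.38, edgeR adjusted p = 0.0383), or 4.65-fold. Its ligand Ccl2, the classical monocyte attractant, was at 1.13, 0.551 and 0.713 CPM in ΔHep and 0.487, 0.156 and 0.251 CPM in F/F libraries, a log2 fold change of 1.43 (SE 0.55) that did not pass (edgeR adjusted p = 0.19). Ccl7 and Ccl12, the other Ccr2 ligands listed, fell below the filter, with 34 and 2 pooled counts in ΔHep and 23 and 1 in F/F. In the monocyte list edgeR called 1 of 5 markers higher, Plac8 (adjusted p = 0.0366), beside 1.51% of all genes tested. Plac8 averaged 13.1 ± 0.606 CPM in ΔHep and 4.38 ± 1.85 CPM in F/F (SD, n = 3 each). All 5 fold changes were positive, with a median log2 value of 1.58. At an unadjusted p below 0.05, 4 were higher, beside 14.1% of all genes. DESeq2 called 3 higher and limma-voom 1. The list summed to 20.7 to 26.4 CPM in ΔHep and 5.83 to 11.6 CPM in F/F libraries, and its part in the receptor changes was not tested.

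These calls rested on most of the libraries. Cx3cr1, Cx3cl1 and Ccr2 were called again without ΔHep replicate 1 and without F/F replicate 3. Without ΔHep replicate 2 or 3, or F/F replicate 1 or 2, none of them passed (edgeR adjusted p from 0.0667 to 0.154 for Cx3cr1, 0.0996 to 0.169 for Cx3cl1 and 0.0824 to 0.169 for Ccr2). In those 4 fits between 1 and 5 genes of the whole table passed, and the log2 fold changes stayed between 2.38 and 2.59 for Cx3cr1, 1.75 and 2.16 for Cx3cl1, and 1.85 and 2.36 for Ccr2. Genes called higher made up 1.23% of those tested without ΔHep replicate 1, 6.79% without F/F replicate 3, and 0.0202%, 0.0269%, 0.00666% and 0% without ΔHep replicate 2, ΔHep replicate 3, F/F replicate 1 and F/F replicate 2. DESeq2 called 8 members higher (6.67% of all genes), library totals in place of TMM scaling gave 6 (4.23%), keeping all genes gave 3 (1.22%) and limma-voom gave 1 (0.522%). With limma-voom Cx3cr1 passed (adjusted p = 0.0496) while Cx3cl1 (0.0566) and Ccr2 (0.0712) did not.

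Macrophage markers were set beside the called members and 4 other ligands. As a percentage of the summed CPM of the 6 macrophage markers, Cx3cr1 was at 0.879%, 2.07% and 1.66% in ΔHep and 0.438%, 0.549% and 0.404% in F/F libraries, with no overlap. Ccr2 was at 0.651%, 1.5% and 1.89% in ΔHep and 0.985%, 0.531% and 0.34% in F/F libraries, with overlap. Cx3cl1 was at 0.49%, 0.985% and 0.726% in ΔHep and 0.712%, 0.329% and 0.212% in F/F libraries, with overlap, and Ccl5, Ccl6, Ccl9 and Cxcl9 overlapped as well. These ratios were chosen after the values had been seen and were not tested. Set beside the monocyte list instead, Cx3cr1 did not separate the groups. In ΔHep replicate 1 Cx3cr1 was at 3.88 CPM beside a list sum of 26.4 CPM. In F/F replicate 2 it was at 0.935 CPM beside 5.83 CPM, a higher ratio. Of the 6 macrophage markers 0 were called with edgeR or limma-voom. At an unadjusted p below 0.05, 5 were higher, beside 14.1% of all genes tested. DESeq2 called 4 higher, beside 6.67% of all genes.

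**Figure D2:**
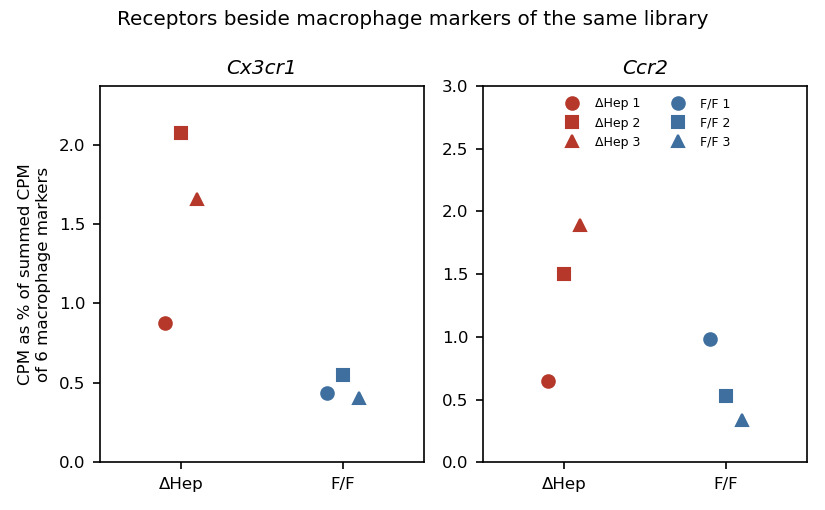
Cx3cr1 and Ccr2 as a percentage of the summed CPM of 6 macrophage markers in the same library (vertical axes, each from 0), 1 point per library. ΔHep and F/F points overlap for Ccr2, while for Cx3cr1 the lowest ΔHep point, 0.879%, lies above the highest F/F point, 0.549%.

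Cx3cr1 also took a larger share of the counts of the 14 signalling receptors. The share was 12.6%, 24.8% and 18.3% in ΔHep and 6.64%, 8.98% and 8.54% in F/F libraries, and the groups did not overlap. Exact 95% binomial intervals cover counting error only. For ΔHep replicate 1 the interval, 10.6% to 14.8%, overlapped those of F/F replicate 2, 6.14% to 12.6%, and F/F replicate 3, 6.11% to 11.5%, and met that of F/F replicate 1, 3.84% to 10.6%. Overlap of intervals is not a test of a difference, and the shares of single libraries were not tested against each other. The Ccr2 share was 9.33%, 18% and 20.9% in ΔHep and 14.9%, 8.68% and 7.19% in F/F libraries, with overlap.

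Neither Cxcr4 nor its ligand Cxcl12 passed the test with edgeR. Cxcl12, the stromal factor that retains and positions cells bearing Cxcr4, was the most abundant member, at 372, 413 and 327 CPM in ΔHep and 348, 349 and 325 CPM in F/F libraries. The groups overlapped, with a log2 fold change of 0.12 (SE 0.12, edgeR adjusted p = 0.618), and it took between 70.1% and 81% of all ligand counts of a library. Cxcr4 was at 3.64, 2.3 and 4.28 CPM in ΔHep and 0.675, 1.34 and 1.18 CPM in F/F libraries, with no overlap. Its log2 fold change of 1.67 (SE 0.36) did not pass with edgeR (adjusted p = 0.0604). It passed without F/F replicate 3 (0.0487), with library totals only (0.0406) and with DESeq2 (0.00106). The second Cxcl12 receptor, the atypical Ackr3, which takes the ligand up, stood at 1.01, 1.9 and 1.8 CPM in ΔHep and 0.675, 0.966 and 0.61 CPM in F/F libraries, a log2 fold change of 1.05 (SE 0.39, edgeR adjusted p = 0.18).

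**Figure D3:**
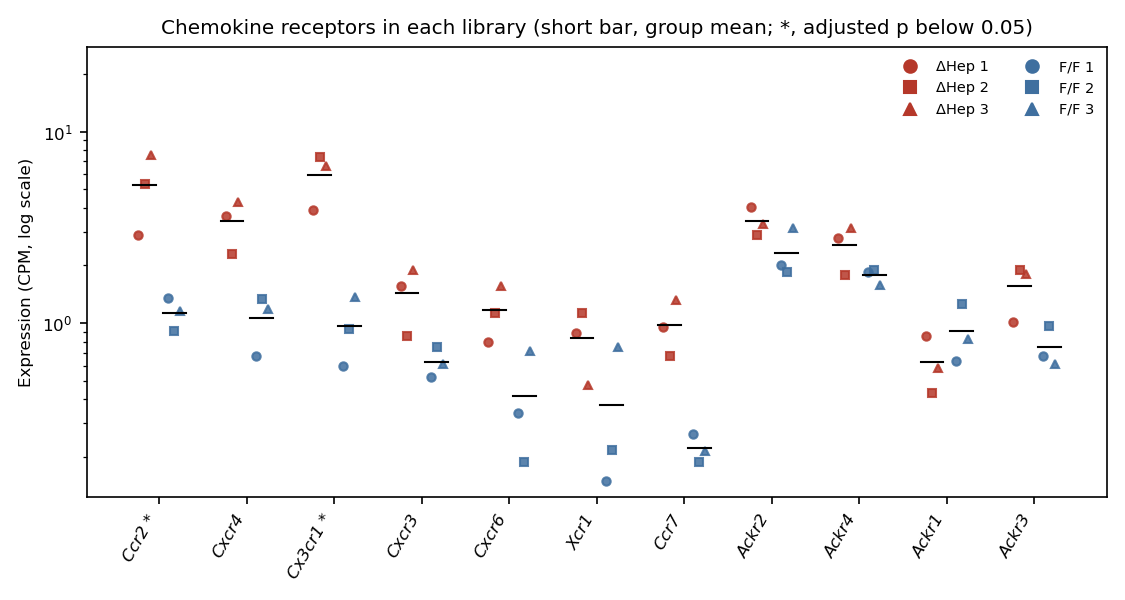
Expression of 11 of the 12 tested receptors in each library (vertical axis, CPM on a log scale), ΔHep left of F/F for each gene, with short bars at the group means. Cx3cr1 and Ccr2 carry an asterisk (adjusted p below 0.05). In Cx3cr1 the lowest ΔHep point, 3.88 CPM, lies above the highest F/F point, 1.36 CPM.

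Cxcr3, the receptor of activated T and NK cells, and its interferon-induced ligands gave no call. Cxcr3 was at 1.57, 0.857 and 1.9 CPM in ΔHep and 0.525, 0.748 and 0.61 CPM in F/F libraries, without overlap, with a log2 fold change of 1.19 (SE 0.41, edgeR adjusted p = 0.156). Cxcl9 was at 23.9, 12.6 and 30.7 CPM in ΔHep and 15.8, 9.69 and 11.7 CPM in F/F libraries, a log2 fold change of 0.86 (SE 0.31, edgeR adjusted p = 0.175), and ΔHep replicate 2 lay within the F/F range. Cxcl10 and Cxcl11, induced by the same signal, had log2 fold changes of 0.26 (SE 0.45) and -0.64 (SE 0.59), and that of Cxcl11 was -1.28 without ΔHep replicate 2. The ligands of this receptor thus had fold changes of both signs, none past the threshold. Cxcl11 is annotated as a polymorphic pseudogene in the mouse reference, and 1582 of its 3794 exon bases are shared with a gene on the opposite strand, so its counts are uncertain. The T cell list had 0 of 6 tested markers past the threshold with edgeR, DESeq2 and limma-voom (3 at an unadjusted p below 0.05, all higher) and summed to 5.17 to 10.4 CPM in ΔHep and 2.4 to 5.16 CPM in F/F libraries. Its part in the Cxcr3 values was not tested.

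Cxcr6, a receptor of liver-resident T and NKT cells, was at 0.8, 1.13 and 1.56 CPM in ΔHep and 0.337, 0.187 and 0.717 CPM in F/F libraries. The groups did not overlap, and the log2 fold change of 1.5 (SE 0.54) did not pass (edgeR adjusted p = 0.172). Without F/F replicate 3 it was 2.15 (0.0568). Its ligand Cxcl16 fell below the filter, with 16 pooled counts in ΔHep and 8 in F/F.

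The CC ligands Ccl9 and Ccl6 were abundant and were not called, and Ccl5 was scarcer. Ccl9, a myeloid attractant of rodents that acts on Ccr1, stood at 48.2, 49.9 and 62.8 CPM in ΔHep and 45.1, 42.8 and 49.4 CPM in F/F libraries, a log2 fold change of 0.23 (SE 0.13, edgeR adjusted p = 0.336). Ccl6, its rodent relative, was at 18.5, 15.7 and 11.6 CPM in ΔHep and 6.26, 8.23 and 12.6 CPM in F/F libraries. F/F replicate 3 was the highest of its group and overlapped with ΔHep, and the log2 fold change of 0.76 (SE 0.27, edgeR adjusted p = 0.168) passed only without that library (0.0349). Ccl5, made by T and NK cells and acting on Ccr1 and Ccr3, is given for its size, a choice made after its values had been seen. It was at 3.55, 2.05 and 8.66 CPM in ΔHep and 0.525, 1.31 and 0.717 CPM in F/F libraries, without overlap. Its log2 fold change of 2.47 (SE 0.57) missed the threshold with edgeR (adjusted p = 0.0667), passed with DESeq2 (0.00021) and library totals only (0.047), and was 1.70 without ΔHep replicate 3.

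**Figure D4:**
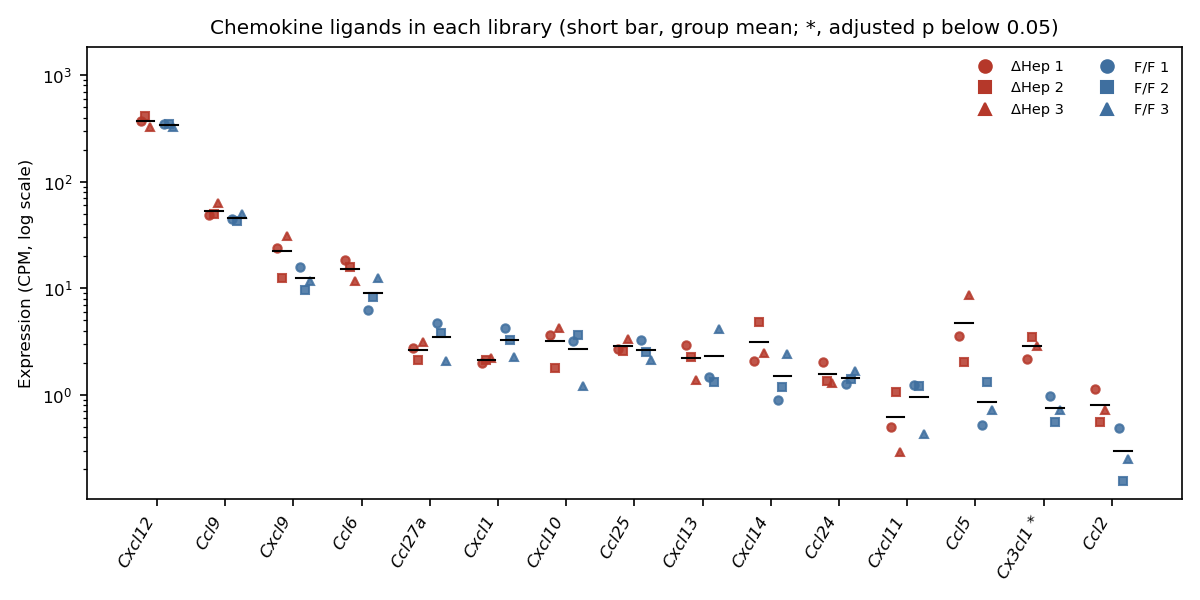
Expression of the 15 tested ligands in each library (vertical axis, CPM on a log scale), ΔHep left of F/F for each gene, with short bars at the group means and an asterisk for an adjusted p below 0.05. Cxcl12 lies at 325 CPM or above in all 6 libraries, and Cx3cl1 is the only ligand with an asterisk.

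Cxcl1 was the only tested member whose ΔHep libraries all lay below the F/F libraries, which held for 11.8% of all genes tested. This neutrophil attractant stood at 1.98, 2.14 and 2.22 CPM in ΔHep and 4.27, 3.3 and 2.26 CPM in F/F libraries, and F/F replicate 3 lay close to the highest ΔHep library. Its log2 fold change of -0.63 (SE 0.28) did not pass (edgeR adjusted p = 0.25). In the other direction 10 of the 27 tested members did not overlap, beside 15.3% of all genes tested. Among these 10 were Ccl2, Ccr7 and Cxcr6, whose entry into the test rested on the ΔHep group. The remaining tested ligands, Ccl24, Ccl25, Ccl27a, Cxcl13 and Cxcl14, had log2 fold changes from -0.40 to 1.04, and none passed. Ccl27a has near-identical relatives in the mouse genome, so its counts are uncertain.

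Atypical receptors apart from Ackr3 overlapped between the groups. Ackr2, which clears inflammatory CC chemokines, was at 4.03, 2.88 and 3.3 CPM in ΔHep and 2.02, 1.84 and 3.12 CPM in F/F libraries, a log2 fold change of 0.55 (SE 0.28, edgeR adjusted p = 0.305). Ackr4, the scavenger of Ccl19, Ccl21 and Ccl25, was at 2.78, 1.78 and 3.12 CPM in ΔHep and 1.84, 1.9 and 1.58 CPM in F/F libraries, a log2 fold change of 0.53 (SE 0.29, edgeR adjusted p = 0.338). Ackr1, a chemokine-binding protein of venules and red cells, had a log2 fold change of -0.54 (SE 0.44). Of Ackr4 479 exon bases are shared with a gene on the opposite strand, and of Ackr1 361 with a gene on the same strand.

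Levels of different genes were compared as CPM per kb of exon, with exon lengths from GENCODE vM21, which may differ from the annotation used for counting. On that scale Cxcl12 averaged 45.3 ± 5.31 in ΔHep and 41.7 ± 1.68 in F/F (SD, n = 3 each), and Ccl9 17.6 ± 2.62 in ΔHep and 15 ± 1.11 in F/F. Ccl6 averaged 8.5 ± 1.91 in ΔHep and 5.03 ± 1.8 in F/F, and Cxcl9 averaged 7.43 ± 3.02 in ΔHep and 4.1 ± 1.03 in F/F. Ccl5 averaged 4.95 ± 3.61 in ΔHep and 0.886 ± 0.426 in F/F, where Cxcl13, Cxcl1, Ccl27a, Cxcl10 and Ccl24 had higher means. The means of Ccl6 and Cxcl9 lay within 1 SD of each other in both groups. Among signalling receptors Cxcr4 averaged 1.88 ± 0.56 in ΔHep and 0.59 ± 0.192 in F/F, Cx3cr1 1.32 ± 0.406 in ΔHep and 0.214 ± 0.0848 in F/F, Cxcr3 0.834 ± 0.308 in ΔHep and 0.362 ± 0.0651 in F/F, and Ccr2 0.778 ± 0.348 in ΔHep and 0.168 ± 0.033 in F/F. In ΔHep the mean ± SD ranges of Cxcr4 and Cx3cr1 overlapped.

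Of the 47 ligand and receptor pairs listed, 10 had both partners tested, over 7 receptors and 8 ligands. Both fold changes were positive in 8 of them, and the receptor's was the larger in 9. Over all genes tested 48.8% had a positive fold change. All 7 receptors were positive, so the count of 8 restates the signs of the ligands and does not measure pairing. Only Cx3cr1 with Cx3cl1 had both partners called, and in the pair of Ccr2 and Ccl2 the receptor alone was called. Pairs share receptors and ligands, so they are not independent.

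The 21 members below the filter held few counts, and 7 of them did not overlap between the groups, all 7 higher in ΔHep. Among all 3708 genes below the filter 11.9% did not overlap and were higher in ΔHep, and 4.37% did not overlap and were lower. Examples were chosen after their values had been seen. Ccl22, a ligand of Ccr4 made by dendritic cells and macrophages, had 16, 9 and 21 counts in ΔHep and 1, 1 and 0 in F/F libraries, a ratio of 19.1 with an exact 95% counting interval from 5 to 162. Ccr1, a myeloid receptor, had 14, 14 and 9 counts in ΔHep and 0, 1 and 1 in F/F libraries, a ratio of 15.4 with an interval from 3.96 to 132. Intervals leave out the spread between samples. With all genes kept, neither passed with edgeR (adjusted p = 0.0616 for Ccl22 and 0.0802 for Ccr1), and both passed with DESeq2 (0.0241 and 0.047).

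Ccl8, a ligand of Ccr8 in mice, and Cxcr2, the neutrophil receptor of Cxcl1, had no counts in F/F libraries. Ccl8 had 10, 3 and 10 counts in ΔHep and 0, 0 and 0 in F/F. That is a ratio of 6.37 against a floor of 3 counts over the F/F group. Such a ratio takes the ΔHep counts as exact and is not a lower bound. Cxcr2 had 2, 1 and 22 counts in ΔHep and 0, 0 and 0 in F/F, a ratio of 6.92 on the same floor. Nearly all of its counts came from ΔHep replicate 3, so the ratio rests on that library. Neither passed with edgeR on all genes (adjusted p = 0.108 and 0.189). Ccr7, the receptor that takes dendritic and T cells to lymph nodes, passed the filter, with 32, 22 and 50 counts in ΔHep and 7, 6 and 6 in F/F libraries. Its log2 fold change of 2.14 (SE 0.46) missed the threshold (edgeR adjusted p = 0.0604) and passed with DESeq2 (0.0127) and library totals only (0.0407). Its ligand Ccl19 had 0, 2 and 8 counts in ΔHep and 0, 0 and 0 in F/F. Ccl19 has copies and pseudogenes such as Ccl19-ps3, so its counts are uncertain.

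Genes that act behind chemokine receptors gave no call with edgeR. Of 26 tested signalling genes 0 passed with edgeR or limma-voom. At an unadjusted p below 0.05, 16 were higher, beside 14.1% of all genes tested. DESeq2 called 12 higher, beside 6.67% of all genes. The median log2 fold change of the signalling genes was 0.76, with 23 positive. Over all genes tested the median was -0.01 and 48.8% were positive. The most abundant were the Gi subunit Gnai3 and the GTPase Rac1, which hepatocytes also express. They averaged 122 ± 4.48 and 118 ± 4.35 CPM in ΔHep and 133 ± 8.14 and 128 ± 4.79 CPM in F/F (SD, n = 3 each). Neither passed (edgeR adjusted p = 0.503 and 0.544). Unlike most of the list, both had negative log2 fold changes, -0.13 and -0.11. Among 10 tested cytokines and factors that induce chemokines 1 rose, Irf8, a transcription factor of monocytes and dendritic cells, at 17.6 ± 2.15 CPM in ΔHep and 8.41 ± 1.43 CPM in F/F (log2 fold change 1.07, SE 0.17, edgeR adjusted p = 0.0329). Across all genes tested 1.51% were called higher. At an unadjusted p below 0.05, 3 genes of that list were higher and 1 lower, beside 14.1% and 6.97% of all genes. DESeq2 called 2 of that list higher (6.67% of all genes) and limma-voom 1 (0.522%). The median of that list was 0.06.

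Of 10 tested leukocyte adhesion genes 1 rose, Selplg, the selectin ligand of leukocytes, at 7.86 ± 1.13 CPM in ΔHep and 2.88 ± 0.741 CPM in F/F (log2 fold change 1.45, SE 0.24, edgeR adjusted p = 0.0346). Across all genes tested 1.51% were called higher. At an unadjusted p below 0.05, 7 adhesion genes were higher, beside 14.1% of all genes. DESeq2 called 5 adhesion genes higher (6.67% of all genes) and limma-voom 1 (0.522%). All 10 adhesion fold changes were positive, beside 48.8% of all genes, with a median of 1.16. None of 6 tested chemokine-like or processing genes passed with edgeR or limma-voom (0; 2 higher at an unadjusted p below 0.05, 1 higher with DESeq2). The most abundant were the chemoattractant precursor Rarres2, at 275 ± 15.9 CPM in ΔHep and 315 ± 47.7 CPM in F/F, and Dpp4, a peptidase that trims chemokines, at 153 ± 18.2 CPM in ΔHep and 147 ± 11.5 CPM in F/F.

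Markers of some other cells were called higher in ΔHep with edgeR, most of them stellate cell and fibroblast markers. Across all genes tested 1.51% were called higher. Stellate cell and fibroblast markers rose in 5 of 8, among them Lum, Col1a2 and Dcn, and summed to 476 to 703 CPM in ΔHep and 234 to 328 CPM in F/F libraries. Cholangiocyte markers rose in 2 of 5, Krt19 and Krt7, and summed to 70.2 to 135 CPM in ΔHep and 31.8 to 91.9 CPM in F/F libraries, with overlap. Dendritic cell markers rose in 1 of 5, Itgax, and summed to 18 to 21.8 CPM in ΔHep and 9.9 to 15.3 CPM in F/F libraries. Of these 3 lists limma-voom called 1, 0 and 0 markers (0.522% of all genes) and DESeq2 7, 3 and 1 (6.67%). Without ΔHep replicate 2 or 3, or F/F replicate 1 or 2, 0 genes of the pathway and marker lists passed with edgeR. In the Kupffer cell, endothelial, neutrophil, NK cell and B cell lists 0 markers passed with edgeR or limma-voom, 1, 4, 2, 1 and 3 were higher at an unadjusted p below 0.05, and DESeq2 called 1, a neutrophil marker. Kupffer cell markers summed to 310 to 447 CPM in ΔHep and 145 to 390 CPM in F/F libraries, with overlap, and endothelial markers to 331 to 391 CPM in ΔHep and 186 to 328 CPM in F/F libraries. Neutrophil markers summed to 4.18 to 10.5 CPM in ΔHep and 1.69 to 2.9 CPM in F/F, NK cell markers to 2.11 to 5.97 CPM in ΔHep and 1.53 to 2.21 CPM in F/F, with overlap, and B cell markers to 2.22 to 11.3 CPM in ΔHep and 1.18 to 2.04 CPM in F/F. No marker found in the table was at 0 in all 6 libraries. The part of these cells in the chemokine values was not tested.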

How the data were processed

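RNA was sequenced from 3 ΔHep and 3 F/F hepatocyte preparations. The authors deposited raw read counts per gene symbol. The submitters' processing notes name HISAT2 2.0.4 and build mm10; the counting program, annotation, strand setting and filters are not stated in the labels, so overlapping, antisense and near-identical genes are uncertain.

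Counts were fitted with edgeR 4.0.16 in R 4.3.3 (TMM scaling, filterByExpr with a minimum count of 10 and total of 15, quasi-likelihood F test, two-sided, Benjamini-Hochberg adjustment over all 14552 genes, threshold 0.05). SE is the fold change divided by the square root of F. DESeq2 1.42.0, limma-voom 3.58.1, library totals, no filter, a replicate block and leaving out each library were alternatives. The procedure was tested on simulated data. Gene positions came from GENCODE vM21 (mm10), where all 48 members matched. Replicate pairs differed by 15.6 to 95.33 in chi-square per degree of freedom, more than counting noise, so none was merged with another. The pathway and marker lists, 47 pairs and members were chosen with earlier results of these data known. Full values were given for called members, receptors from 1 CPM, ligands from 5 CPM and tested ligands of called receptors. From each list up to 3 called genes, or else up to 2 of the most abundant, could be named; for marker lists only called genes are named. A member named by that rule, counted in the totals, is not reported here.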

Additional observations from a re-analysis of the deposited data

How the results depend on the processing

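The count of 3 members called depended on the method and on single libraries. It was 8 with DESeq2, 6 with library totals only, 1 with limma-voom and 3 with all genes kept. Leaving out each library in turn gave between 0 and 7 members, with 9 to 17 at an unadjusted p below 0.05. The 7 came without F/F replicate 3, where 1246 genes of the whole table passed, and the 0 without F/F replicate 1 or 2 or ΔHep replicate 2 or 3. Calls among the pathway and marker genes, 11 with edgeR, were 39 with DESeq2, 24 with library totals only and 4 with limma-voom, and between 0 and 53 when a library was left out. The number of members with a positive fold change stayed between 21 and 23 of the 27 in all 11 alternatives. The labels do not say whether the replicate numbers pair the samples. Deviations from the group means correlated at 0.15, -0.08 and -0.02 for numbers 1, 2 and 3, which cannot settle it with 3 libraries per group. With the number as a replicate block 1 member was called, Cx3cr1 (adjusted p = 0.0247), with 14 pathway and marker genes. Signs changed for 4 members and Dpp4, none of them past the threshold. Cxcl13 had a log2 fold change of 0.03 with library totals only, 0.07 with limma-voom, 0.08 with the block, and from -0.36 to 0.66 over the fits that left out a library (0.18 without ΔHep replicate 3, 0.66 without F/F replicate 3). Over the same fits Ccl24 ran from -0.14 to 0.22 and Dpp4 from -0.04 to 0.12, both negative without ΔHep replicate 1. Ccl25 ran from -0.03 to 0.3, negative without ΔHep replicate 3 (-0.02) or F/F replicate 3, and Cxcl10 from -0.09 to 0.55, negative without F/F replicate 3. The cause of these shifts was not tested. A gene at 1 CPM rests on 37.87 counts or fewer per library, which limits the precision of members below that level.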

Other observations

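Many chemokine genes lie in clusters, and values differed among neighbours. With gaps of at most 200 kb, 27 of the 48 members fell into 7 clusters of mm10. On chromosome 8, from 94745590 to 94812036, Ccl22, Cx3cl1 and Ccl17 lie within 66.4 kb: Cx3cl1 rose, Ccl22 did not overlap between the groups, and Ccl17 had 11, 3 and 5 counts in ΔHep and 1, 4 and 7 in F/F libraries, with overlap. On chromosome 9, Ccr2 (124101950 to 124113557, plus strand) was called. Of its cluster mates Cxcr6 (log2 fold change 1.5) and Xcr1 (1.15) were tested and not called (edgeR adjusted p = 0.172 and 0.347), and Xcr1 overlapped between the groups and was at 2.13 without F/F replicate 3. Ccr1, Ccr3 and Ccr9 fell below the filter, and of these Ccr1 did not overlap, with a count ratio of 15.4. Cx3cr1 lies apart from this cluster, on the minus strand of the same chromosome from 119901616 to 120069879, and 78 of its 4505 exon bases are shared with an antisense gene.

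On chromosome 5, Cxcl9, Cxcl10 and Cxcl11 lie within 44.1 kb on the minus strand. The count ratio of Cxcl9 to Cxcl10 was 6.52, 7.1 and 7.26 in ΔHep and 4.95, 2.66 and 9.56 in F/F libraries, so it overlapped and spread more widely in F/F. On chromosome 11, Ccl5, Ccl9, Ccl6, Ccl3 and Ccl4 lie within 138.9 kb. The count ratio of Ccl9 to Ccl6 was 2.61, 3.18 and 5.39 in ΔHep and 7.2, 5.2 and 3.93 in F/F libraries, with overlap. Ccl3 and Ccl4 had 15 and 41 pooled counts in ΔHep and 8 and 9 in F/F, both below the filter.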
